A study of Mus musculus with 4 samples.

Results

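Interferon response genes were read in peritoneal exudate cells of wild-type mice and of mice without a working Cebpe gene. Cebpe encodes C/EBPε, a factor that granulocytes need for the last steps of their maturation, and the study looked for genes under its control in neutrophils and macrophages. The list held 34 genes, and 26 of them had at least 1 probe set annotated to that gene alone, out of 6137 genes named in this way on the arrays. A probe set was assigned by the gene symbol in the platform annotation and by no measured value. The list itself was drawn up with earlier results of these data known. The 26 genes were 11 antiviral effectors, 6 interferon-inducible GTPases, 3 genes of the Ifi200 family, 4 regulators of the response and the 2 subunits of the peptide transporter. Isg20, Oas1a, Oasl1, Oasl2, Bst2, Tgtp1, Ifi203 and Stat2 had no probe set of their own here and were not analysed.

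Both genotypes, C/EBPE +/+ and -/-, shared a mixed background, 129/SvEv x NIH Black Swiss, and an age of 6 to 8 weeks. Each mouse had received 2 ml of 4% thioglycollate broth in the peritoneum, a sterile irritant that recruits neutrophils and then monocytes, and cells were washed out 24 h later. The labels count 4 mice of each genotype. Their account of how the cells were combined breaks off, so whether an array stands for 1 mouse or several is not known here. By cytospin the exudates of both genotypes held about 60% neutrophils, 30% monocytes and 7 to 10% lymphocytes. The labels name no interferon or virus treatment, and no untreated cavity was among the samples. The RNA was read on 2 types of Affymetrix array, A and B, whose probe sets differ, with 1 array for each genotype and type. No difference therefore has a replicate check, and no test was possible. The labels name the deficient sample of type B by its title only. None of the named probe sets belonged to Cebpe, so the loss of the targeted gene could not be checked.

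Interferons are secreted signals that most cells answer with the transcription of a shared set of defence genes. Type I interferons act through the Ifnar1 and Ifnar2 receptor and its kinases, and their signal reaches genes that carry the interferon-stimulated response element, where IRF9 binds as part of a complex. Interferon gamma acts through Ifngr1 and Ifngr2 on genes that carry the gamma-activated site, or GAS. The products block viral replication, attack the vacuoles of intracellular microbes, sense foreign DNA and prepare peptides for display to T cells. Macrophages and neutrophils both carry the receptors.

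The promoters of 19 of the 26 genes were matched by symbol in a RefSeq table on build GRCm38.p6, in 25 windows of 250 bases before to 50 after a transcription start. They show what the list has in common in sequence. No sequence was searched to choose the list, but interferons act on genes that carry these elements. A share above that of all windows is therefore a description and no independent support for the list. The core of the response element was searched as GAAANNGAA or its other strand TTCNNTTTC, and GAS as TTCNNNGAA, which reads alike on both strands. The core was found in 11 of 25 windows (44.0%), against 2812 of all 32851 windows in the table (8.56%). GAS was found in 6 of 25 (24.0%), against 8.30% of all windows. No match of the core overlapped a match of GAS. Some windows belong to the same gene and overlap, so genes were counted too. A core was held by 11 of 19 genes, against 9.76% of all 27025 genes in the table. GAS was held by 6, against 9.55% of all genes. Igtp, Adar and Eif2ak2 held both in 1 window. Irf7, Irf9, Ifi47, Ifi209 and Tap1 held neither, which says only that these letters are absent from the windows searched. Mx1, Mx2, Ly6e, Iigp1, Ifi204, Usp18 and Tap2 had no window in the table.

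A selection of these promoters is printed here because they belong to the genes past 2-fold or stand for the main kinds of window. Isg15 carries overlapping cores, Rsad2 and Gbp2 a single core, Irf1 and Ifi202b a GAS, and Ifi209 neither. Each run is the 250 bases before the start, 5′ to 3′ on the gene's own strand and on GRCm38.p6, with motif matches in capitals. For Isg15 it is chr4:156200819-156201068, minus strand. For Rsad2 it is chr12:26456453-26456702, minus strand. For Gbp2 it is chr3:142620413-142620662, plus strand. For Irf1 it is chr11:53769764-53770013, plus strand. For Ifi202b it is chr1:173982845-173983094, minus strand. For Ifi209 it is chr1:173630609-173630858, plus strand.
Isg15: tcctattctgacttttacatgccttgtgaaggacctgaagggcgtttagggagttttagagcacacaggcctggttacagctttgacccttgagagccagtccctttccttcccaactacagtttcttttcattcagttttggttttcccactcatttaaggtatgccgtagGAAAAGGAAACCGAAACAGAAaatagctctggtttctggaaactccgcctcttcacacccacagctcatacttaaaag
Rsad2: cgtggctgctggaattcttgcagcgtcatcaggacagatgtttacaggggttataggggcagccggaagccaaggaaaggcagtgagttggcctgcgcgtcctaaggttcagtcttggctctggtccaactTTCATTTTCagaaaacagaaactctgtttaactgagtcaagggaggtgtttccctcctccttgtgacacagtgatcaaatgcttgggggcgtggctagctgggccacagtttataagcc
Gbp2: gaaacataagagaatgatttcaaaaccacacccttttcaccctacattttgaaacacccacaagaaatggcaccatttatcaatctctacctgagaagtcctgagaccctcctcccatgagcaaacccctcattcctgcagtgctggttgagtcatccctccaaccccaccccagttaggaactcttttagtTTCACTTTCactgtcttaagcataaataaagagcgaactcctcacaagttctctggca
Irf1: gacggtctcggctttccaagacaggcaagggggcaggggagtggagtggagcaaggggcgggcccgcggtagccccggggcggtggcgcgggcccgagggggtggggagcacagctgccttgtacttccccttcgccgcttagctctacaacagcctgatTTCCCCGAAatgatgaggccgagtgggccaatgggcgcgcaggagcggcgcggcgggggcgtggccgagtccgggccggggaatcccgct
Ifi202b: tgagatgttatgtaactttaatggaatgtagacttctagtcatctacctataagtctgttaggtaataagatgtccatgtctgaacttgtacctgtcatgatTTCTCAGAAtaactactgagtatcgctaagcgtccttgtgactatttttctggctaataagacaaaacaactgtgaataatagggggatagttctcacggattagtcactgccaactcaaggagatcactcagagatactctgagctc
Ifi209: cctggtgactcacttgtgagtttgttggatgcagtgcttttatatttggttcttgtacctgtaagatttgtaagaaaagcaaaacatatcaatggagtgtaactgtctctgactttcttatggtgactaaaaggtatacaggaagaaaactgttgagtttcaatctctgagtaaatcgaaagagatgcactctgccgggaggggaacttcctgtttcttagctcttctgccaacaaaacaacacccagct

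**Figure D1:**
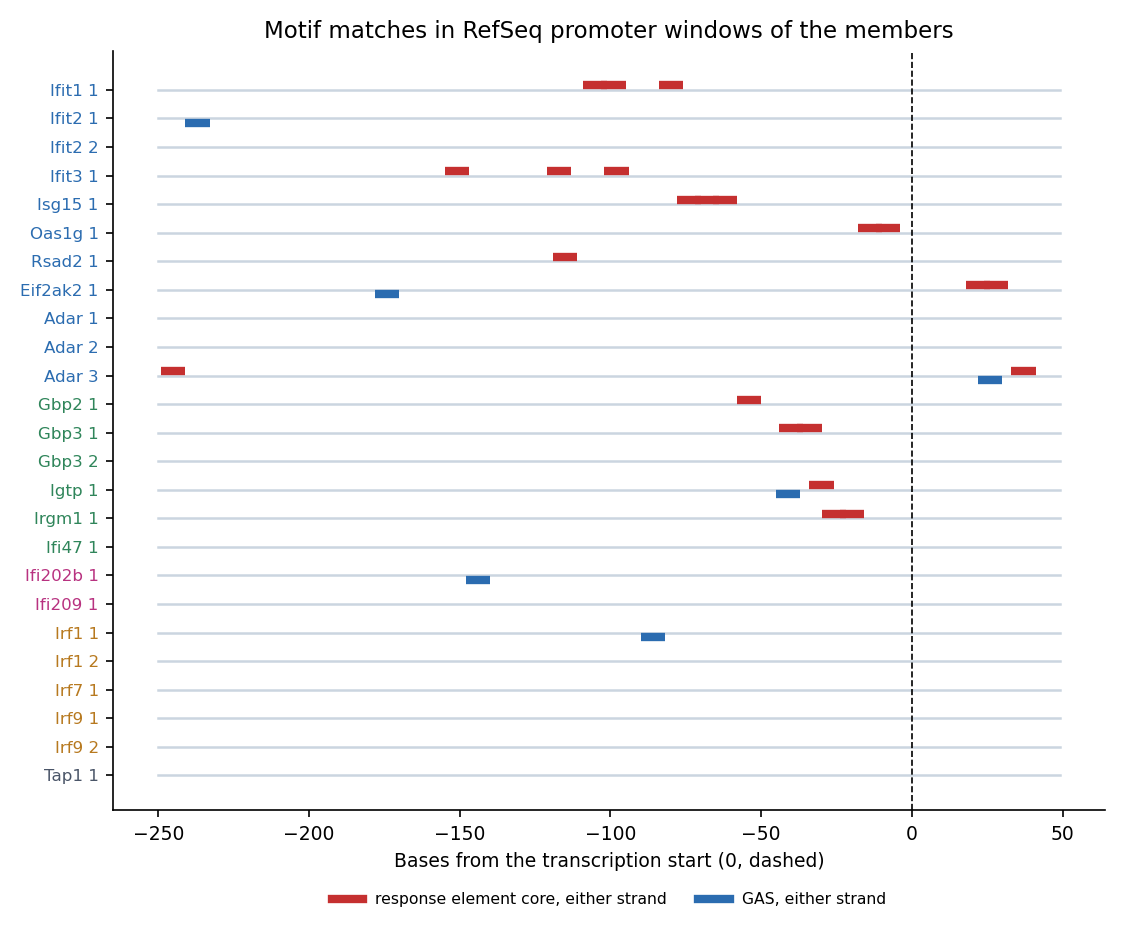
Matches of the response element core (red) and of GAS (blue) in 25 promoter windows of 19 member genes, with the number of the window after the gene's name and distance in bases from the transcription start on the horizontal axis. Isg15, Ifit1 and Ifit3 hold 3 cores each, and Ifi209, Ifi47, Irf7, Irf9 and Tap1 hold no match.

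Of the 12 member genes readable in both genotypes, 8 had the lower signal in deficient cells, a share of 66.7% against 48.9% of all genes so read. Past 2-fold were the guanylate-binding protein gene Gbp2, at least 3.31-fold lower, Ifi202b of the Ifi200 family, at least 2.62-fold lower, and Ifi209 of the same family, 3.10-fold higher. The antiviral genes and regulators readable in both genotypes differed by less than 2-fold. In whole exudate cells, fewer cells of a type and less RNA in each cell cannot be told apart. Signal counted as readable above a floor, the median of both arrays of a type, which was 1036 on A and 690 on B. Where both arrays exceeded it a ratio was taken, here always deficient over wild-type on the log2 scale. Where only 1 array exceeded it, its signal was set against the floor itself, which bounds the difference from below and is worded "at least". Such a bound takes the signal as read and makes no allowance for its error. Of the 26 genes, 12 had a ratio, 5 a bound and 9 were at or below the floor in both genotypes. Among all 6137 named genes these numbers were 3131, 618 and 2388.

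Of the 12 ratios, 8 were below 0 and 4 above, with a median of -0.24 and a mean of -0.09. Among all 3131 genes with a ratio, 48.9% were below 0 and the median was 0.01. None of the 12 was lower by 2-fold or more, against 3.64% of all measured genes, and 1, Ifi209, was higher by 2-fold or more, against 2.97%. All 5 bounds were on the lower side, where 50.8% of all 618 bounded genes lay. A gene enters this class only by being above the floor in 1 genotype, so these 5 describe the class and support no direction for the list. Of the 5, Gbp2 and Ifi202b were past 2-fold, against 9.06% of bounded genes lower and 10.0% higher by that much. With bounded genes at their bound the median over 17 genes was -0.40.

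The only repeat readings in the design are probe sets of the same gene. Their log2 ratios had a pooled SD of 0.46 where signal averaged below 3 times the floor (74 genes) and 0.34 above (245 genes), so 1 ratio carries a 95% half-width of 0.90 or 0.67. This error holds no spread between mice or hybridisations. Ratios of Mx2 and Ifi209 lay outside their half-width, 2 of 12 genes, and 14.2% of all measured genes did so. By number the list therefore held about as many such genes as the arrays at large. Values below 0 give a second view of the background: 20.7% to 29.3% of values per array were negative, and 27.4% to 38.8% of the negative ones were farther from 0 than the floor. Readings near the floor are accordingly weak, and a gene below it in both genotypes is given no order.

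**Figure D2:**
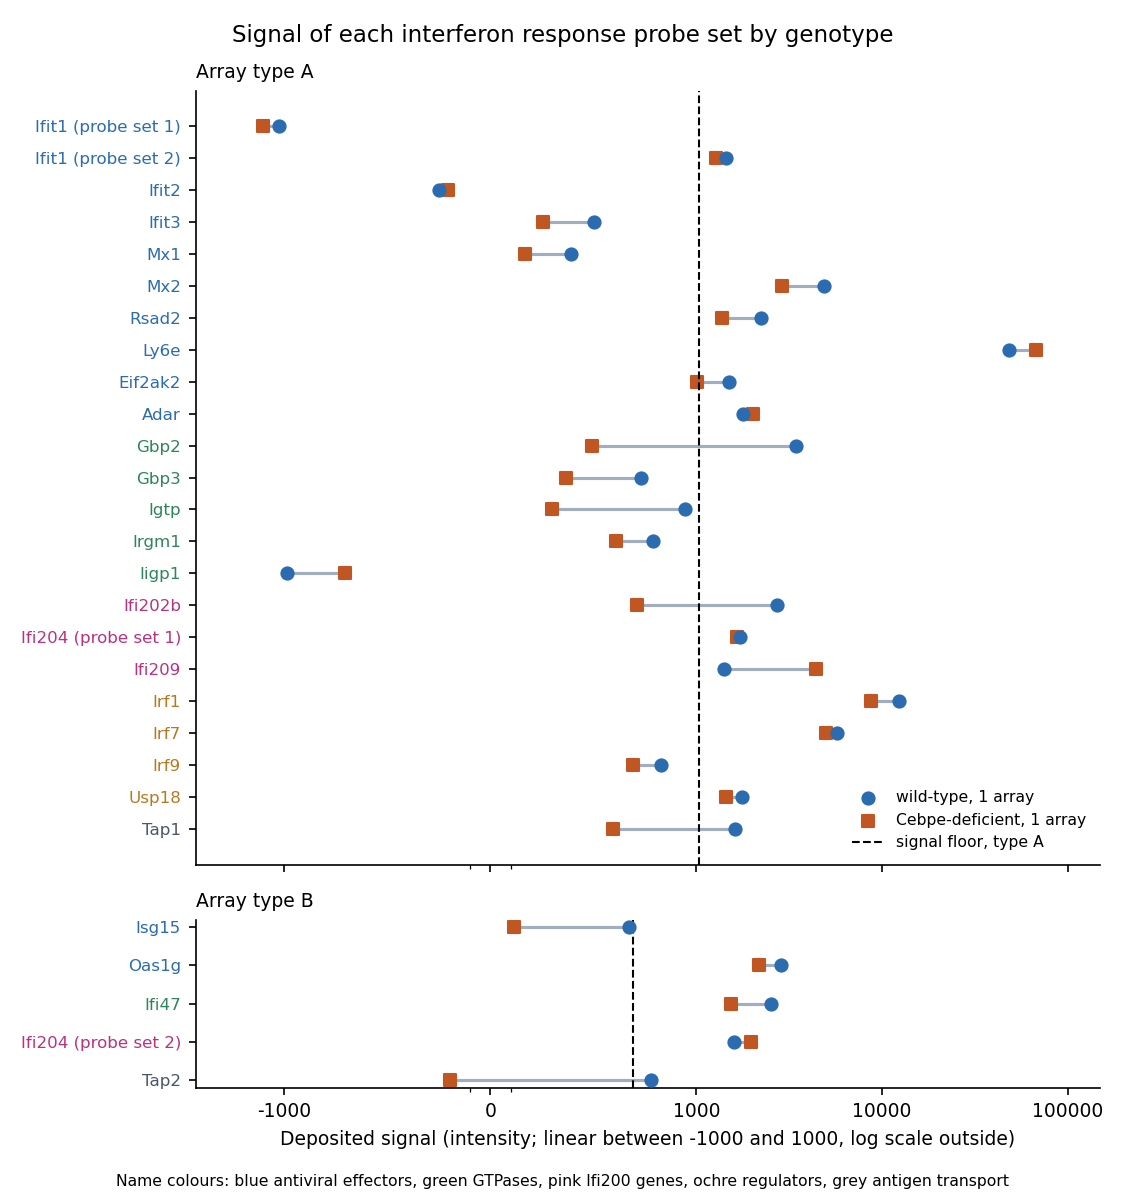
Deposited signal of the 28 member probe sets in wild-type (circles) and Cebpe-deficient cells (squares), 1 array each, on an axis that is linear around 0 and logarithmic farther out, with the floor dashed. Gbp2, Ifi202b, Tap1 and Eif2ak2 cross the floor of type A and Tap2 that of type B, Ifi209 lies above it with the deficient reading higher, and 9 genes lie below their floor in both genotypes.

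Among the antiviral effectors, 6 genes had a ratio, 4 of them below 0 (median -0.29), against 48.9% of all measured genes. Mx2, a dynamin-like GTPase that traps viral components, read 4872 in wild-type cells and 2905 in deficient ones, a ratio of -0.75 against a half-width of 0.67. Rsad2, or viperin, which makes a chain-terminating nucleotide, read 2225 and 1376, a ratio of -0.69 within its half-width of 0.90. The promoter of Rsad2 printed above holds 1 core of the response element. Oas1g, an oligoadenylate synthetase that activates RNase L on double-stranded RNA, read 2857 and 2171 on B, a ratio of -0.40. Ifit1, which binds viral RNA lacking a host cap, read 1437 and 1268, a ratio of -0.18, and its other probe set read below 0 in both genotypes (-1070 and -1293). The wild-type reading was the higher of the pair in these 4 genes, by amounts inside the repeat error except for Mx2.

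Ly6e and Adar were the antiviral effectors with a higher reading in deficient cells. Ly6e, a small membrane-anchored protein that restricts coronavirus entry, read 48572 and 67443, a ratio of 0.47 within its half-width of 0.67. Adar, which edits adenosine in double-stranded RNA, read 1782 and 2016, a ratio of 0.18 from a probe set of the kind shared within a sequence family. Eif2ak2 is the kinase PKR, which halts translation on double-stranded RNA. It read 1489 in wild-type cells and 1002 in deficient cells, just under the floor, and so was at least 1.44-fold lower. This bound of -0.52 was smaller than the half-width of 0.90 for a ratio at such signal.

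Isg15, Ifit2, Ifit3 and Mx1 could not be read in either genotype. Isg15, the ubiquitin-like protein conjugated to other proteins, read 672 and 116 on B, and its wild-type reading missed the floor of 690 by a small margin, so that scaling to equal medians gave it a bound of -0.05. Ifit3, a partner of Ifit1, read 503 and 254, Mx1, the nuclear influenza restriction factor, 392 and 169, and Ifit2, another RNA-binding member of the family, -249 and -204. Isg15 and Ifit3 hold 3 response element cores each, as does Ifit1, whose signal averaged 1.3 times the floor. A link between motif number and signal was not tested, and Oas1g, with 2 cores, averaged 3.64 times its floor.

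The interferon-inducible GTPases assemble on the vacuoles of bacteria and parasites. Gbp2 read 3425 in wild-type cells and 494 in deficient cells, and was at least 3.31-fold lower (bound -1.72). With the floor at the 70th percentile its bound shrank to -0.42, and a floor at the 30th percentile gave it a ratio of -2.79. Ifi47, a GTPase of the IRG family, was the one member of the group above the floor on both arrays, at 2516 and 1543 on B, a ratio of -0.70 within its half-width of 0.90. With the floor at the 70th percentile Ifi47 had a bound of -0.30. The remaining 4 were under the floor in both genotypes. Igtp read 945 and 299, Irgm1, a regulator of the other IRG proteins, 791 and 610, and Gbp3, next to Gbp2 on chromosome 3 with 1 protein-coding gene between them, 730 and 367. Iigp1, which loads onto parasite vacuoles, read -988 and -703.

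The Ifi200 family encodes nuclear proteins, several of which bind DNA, and its genes lie in a cluster on chromosome 1. Its 3 readable members had values on both sides of 0. Ifi209 read 1414 and 4392, the deficient reading being the higher, a ratio of 1.63, and only 11 of 3131 measured genes had a higher ratio. A floor at the 70th percentile lies above the wild-type reading, and Ifi209 then had a bound of 0.78. Ifi202b, an antagonist of DNA sensing through AIM2, read 2720 and 714 and was at least 2.62-fold lower (bound -1.39), while with the higher floor its bound was -0.09. Ifi204, which takes part in the interferon response to cytosolic DNA, had a ratio of 0.30 on B (1603 and 1975) and -0.05 on A (1717 and 1663), both from probe sets of the kind shared within a sequence family. RefSeq places 2 protein-coding genes between Ifi209 and Ifi204 and 3 between Ifi204 and Ifi202b. Near-identical copies in this cluster can share probes, and the annotation alone was used to assign them here, so all 3 readings are uncertain as to the gene. The difference between Ifi209 and Ifi202b in direction was not tested.

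The regulators set the strength and duration of the response. Irf1, an activator induced by interferon gamma whose promoter carries the GAS printed above, read 12324 in wild-type cells and 8750 in deficient ones, a ratio of -0.49 within its half-width of 0.67. Irf7, which drives type I interferon production, read 5717 and 4971, a ratio of -0.20. Usp18, which removes ISG15 from proteins and restrains the receptor, read 1766 and 1451, a ratio of -0.28. Deficient readings of these 3 were the lower ones, by -0.28 at the median and in each case within the repeat error. Of all measured genes 48.9% read lower in deficient cells. Irf9, the DNA-binding part of the type I complex, was below the floor at 830 and 691.

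Tap1 and Tap2 form the transporter that carries peptides into the endoplasmic reticulum for MHC class I. Tap1 read 1605 in wild-type cells and 595 in deficient ones and was at least 1.55-fold lower. Tap2 read 782 and -196 on B and was at least 1.13-fold lower, a bound of -0.18 that a floor at the 30th percentile extended to -4.48. Neither transporter gene exceeded the floor in deficient cells, and the wild-type reading of Tap2 was close to it. Both bounds, -0.63 for Tap1 and -0.18 for Tap2, were smaller than the half-width of 0.90 for a ratio at such signal. The genes are neighbours on chromosome 17 with 1 protein-coding gene between them, and their probe sets are on different array types.

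**Figure D3:**
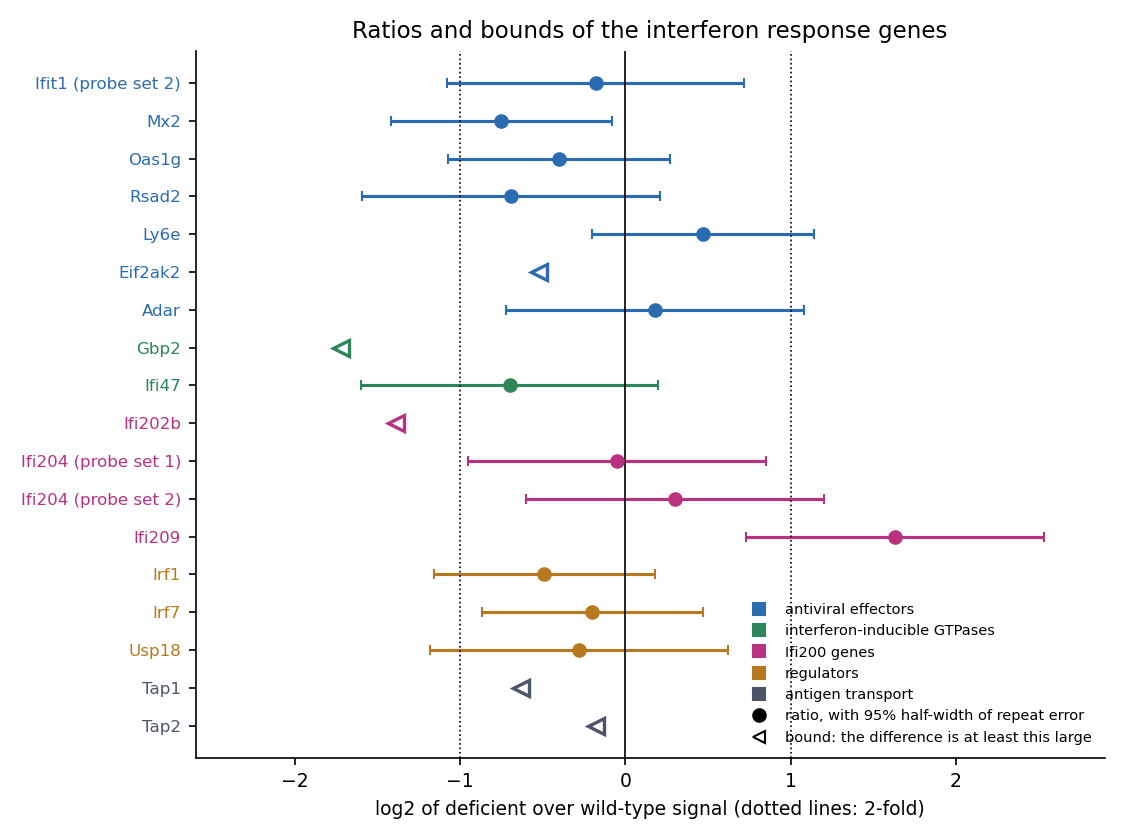
Log2 of deficient over wild-type signal for the member probe sets above the floor on at least 1 array, coloured by role, with circles for ratios (bars are the 95% half-width of the repeat error) and open triangles for bounds. Ifi209 lies at 1.63, Gbp2 and Ifi202b have bounds of -1.72 and -1.39, and only the bars of Mx2 and Ifi209 stay clear of 0.

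The direction of most members did not depend on the scaling of the arrays. Over no scaling, equal medians, quantile and loess normalisation, 8 of 12 ratios stayed below 0 and the member median ran from -0.28 to -0.18. Scaling to the bacterial hybridisation controls raised the median of all measured genes to 0.24 and that of the members to -0.05. Relative to all genes the members then stood at -0.29, against -0.25 with trimmed-mean scaling, and 7 of 13 ratios were below 0. Under that scaling Ifit1 turned to 0.02 and Irf7 to 0.00, Oas1g stood at -0.05, and no other member with a ratio or a bound changed sign under the 5 scalings. The same scaling raised the share of higher among all genes past 2-fold from 44.9% to 75.5%.

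**Figure D4:**
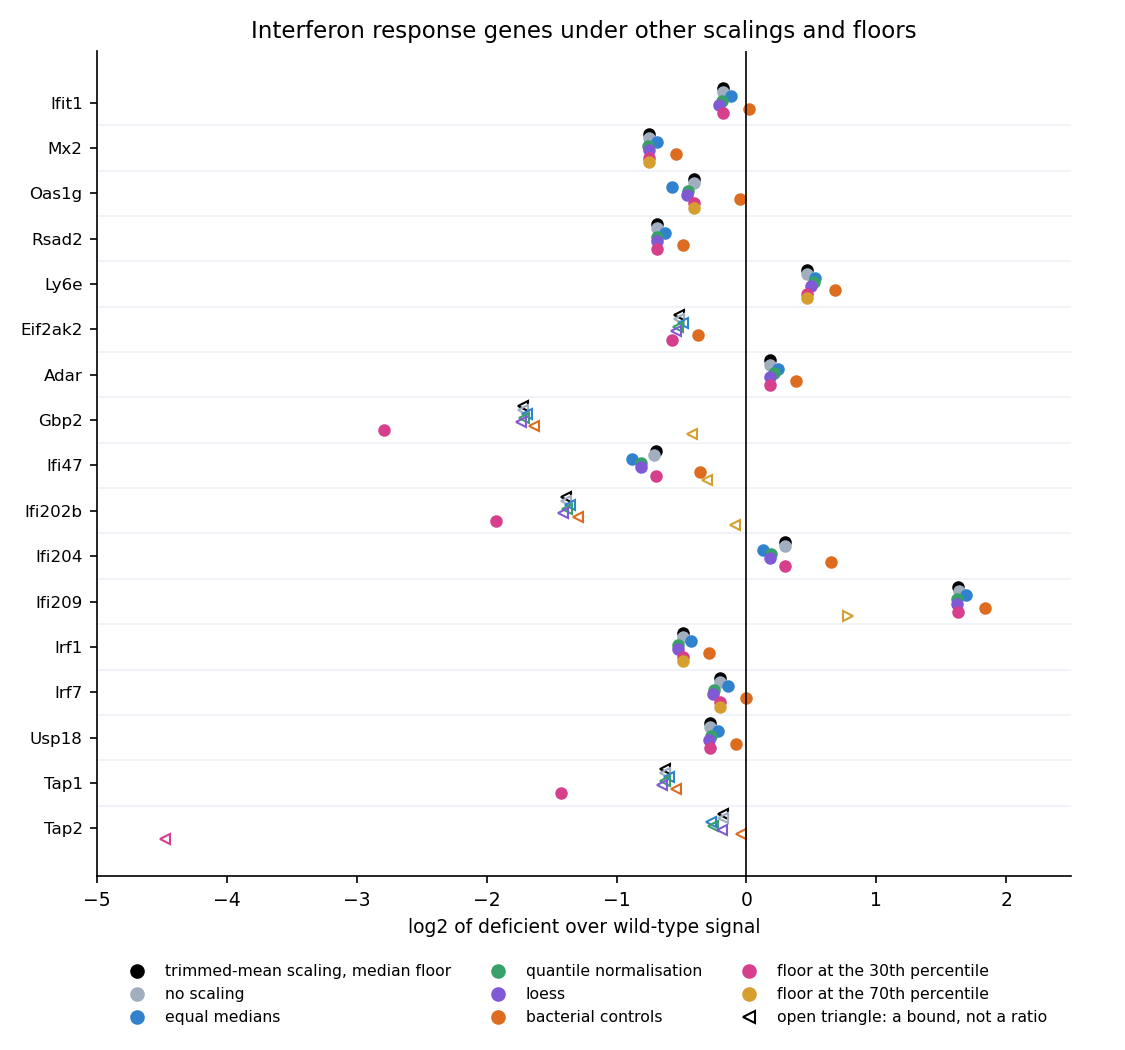
Log2 of deficient over wild-type signal of the 17 members with a ratio or bound under 6 scalings and 2 other floors, with open triangles for bounds that point away from 0. Bacterial control scaling moves the points to the right, to 0.02 for Ifit1, and the 30th percentile floor moves Gbp2 to a ratio of -2.79.

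The level of the floor decided how many members could be read. At the 30th percentile, a floor of 256 on A and 35.0 on B, 21 members had a ratio, 17 of them below 0, as were 49.0% of all 4273 genes with a ratio at that floor (medians -0.49 and 0.01). Of these 21 genes 5 were lower by 2-fold or more, against 7.18% of all genes, and Ifi209 was higher, against 6.46%. The 5 were Gbp2 at -2.79, Isg15 at -2.53, Ifi202b at -1.93, Igtp at -1.66 and Tap1 at -1.43. Their deficient readings lay below the median floor, for which no repeat error was computed. At the 70th percentile 5 members had a ratio: Mx2, Oas1g, Ly6e, Irf1 and Irf7, at the values given.

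Upstream in the pathway, interferon genes gave weak readings, and the receptor genes with a ratio read higher in deficient cells by 0.18 (Ifnar1) to 1.45 (Ifngr1). Of the interferon genes 4 of 11 were above the floor on both arrays with ratios from -0.04 to 0.63, while Ifnb1 (730 and 463) and Ifng (-400 and -45) were below it. Of 6 measured receptor and kinase genes, 5 were above 0 (median 0.25), as were 1601 of all 3131 measured genes. Ifngr1, the ligand-binding chain for interferon gamma, read 4894 in wild-type cells and 13382 in deficient ones and was 2.73-fold higher. Ifnar2 read 1183 and 1974, a ratio of 0.74, and Ifnar1 7192 and 8149, a ratio of 0.18. Jak2, a kinase of the interferon gamma receptor, gave ratios of -0.80, -0.17 and 0.12 by its 3 measured probe sets.

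All 4 measured STAT and IRF factors outside the member list were slightly above 0 (median 0.22), and 1601 of all 3131 measured genes were above 0. Irf8, a factor of monocyte development, read 7044 and 7897, and Stat3, which answers interleukin 6 and interleukin 10, had ratios of 0.30 and 0.88 by its probe sets. The ratios read for these 4 lay between 0.16 and 0.30, inside the repeat error. The other Stat3 ratio, 0.88 from readings of 3113 and 5715, lay outside its half-width of 0.67. Inhibitors of the pathway went both ways: Socs3, a feedback inhibitor of cytokine receptors, stood at -0.44 and the phosphatase gene Ptpn1 at 0.59. Pias3, an inhibitor of STAT3, was at least 1.92-fold lower, and Socs1 was below the floor. Of the nucleic acid sensing genes only the adaptor gene Myd88 was above the floor on both arrays, at -0.07.

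Further interferon-induced genes stood below 0 in 14 of 16 cases (median -0.29), against 48.9% of all measured genes. Acod1, which makes itaconate, read 9380 and 1603 on B (5.85-fold lower, and -1.38 by a probe set on A). Daxx, a histone chaperone partner of PML bodies, read 8619 and 2241 and was 3.85-fold lower. Fgl2, a prothrombinase of activated macrophages, read 3181 and 1168 and was 2.72-fold lower. The other 13 lay between -0.73 (Cxcl10, a T cell attractant) and 0.29 (Uba7, the activating enzyme for ISG15). Acod1 and Cxcl10 are also induced through NF-κB by microbial products, so their place on this list does not mark an interferon signal alone.

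Genes of antigen processing and MHC class I were below 0 in 10 of 12 cases (median -0.24), against 48.9% of all measured genes. Psmb10, an immunoproteasome subunit, read 4679 and 1483 and was 3.16-fold lower. Its partner Psmb8 gave -0.84 on B and -0.13 on A, and Psmb9 gave -0.36. The light chain B2m stood at -0.25, and H2-K1 and H2-D1, the classical heavy chains, at 0.32 and -0.02. Over all 47 measured genes of these pathway lists 30 were below 0 (63.8%, median -0.07), against 48.9% of all measured genes. By 2-fold or more 4 were lower and 1 was higher, against 3.64% and 2.97% of all measured genes. These lists were drawn up with earlier results of these data known.

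**Figure D5:**
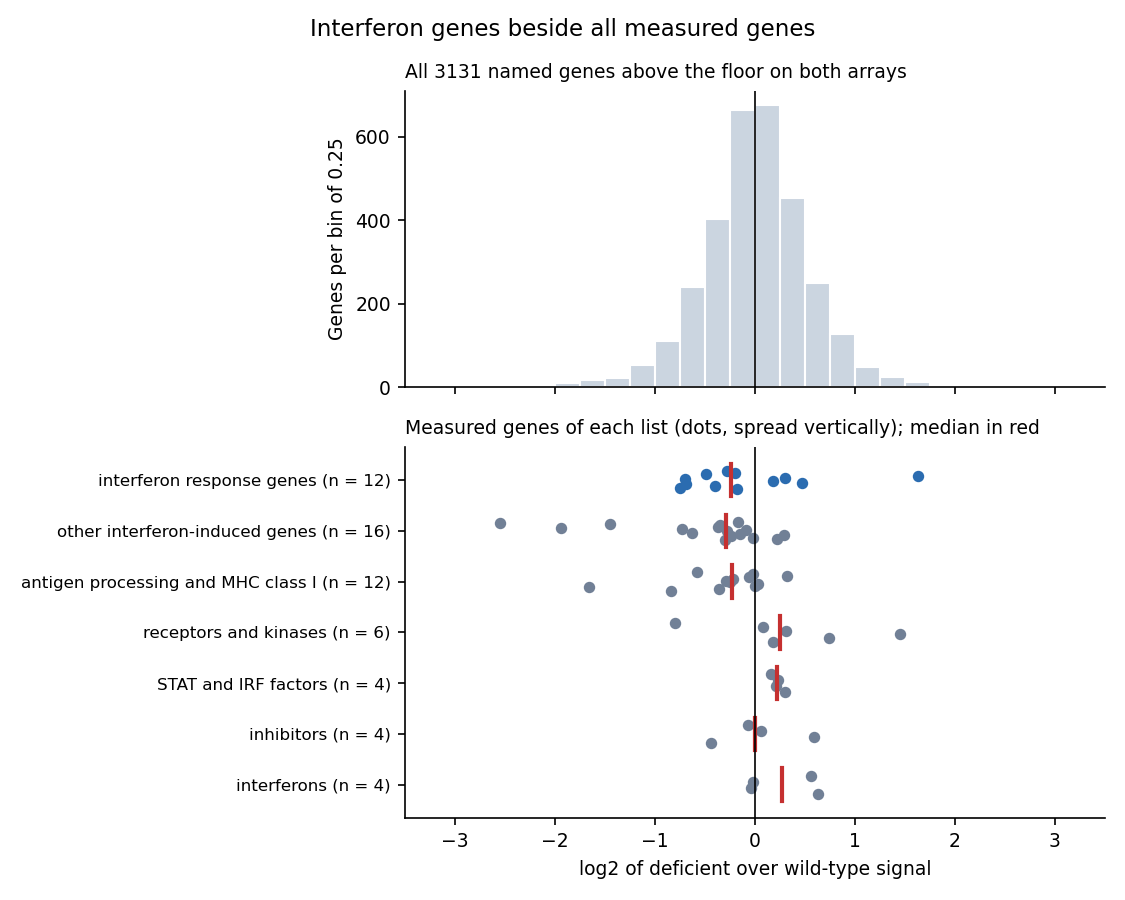
Log2 of deficient over wild-type signal, as counts of genes in bins of 0.25 for all 3131 measured genes (top) and as dots for the measured genes of each interferon list with its median in red (bottom). The medians of the members and of other induced genes are -0.24 and -0.29, those of receptors and kinases and of STAT and IRF factors 0.25 and 0.22.

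Markers of several cell types differed between the same arrays. Among all 3131 measured genes 48.9% were below 0, which is the share to set beside each marker count that follows. Neutrophil markers were below 0 in 7 of 9 measured genes (12 with a probe set, median -0.51, range -1.57 to 0.36). Their summed signal was 137965 in wild-type and 106851 in deficient cells on A, and 62735 and 41965 on B. By cytospin both genotypes held about 60% neutrophils. Whether these markers, granule genes among them, follow neutrophil number in cells without Cebpe was not tested. The granule gene Camp was below the floor in both, and S100a8, the brightest of them, stood at -0.08. Monocyte and macrophage markers were below 0 in 9 of 14 (16 with a probe set, median -0.52, range -2.30 to 2.22), with sums of 148781 and 140551 on A and 317724 and 295772 on B. Mpeg1, the brightest, stood at 0.67, and the ends of the range were Mrc1 and Apoe. Resident peritoneal macrophage markers were below 0 in 6 of 7 (median -0.69), with sums of 70391 and 55793 on A and 33987 and 17604 on B, and the brightest of them, Lrg1, stood at 0.05.

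Plasmacytoid dendritic cells are strong producers of type I interferon. Of their markers 3 of 5 were above the floor, each lower in deficient cells (median -0.41), with sums of 11748 and 9092 on A and 3941 and 2418 on B. These were Spib at -0.41, Tcf4 at -0.24 and Ly6d at -0.70, which B cells express as well. B cell markers went both ways (4 of 7 above 0, median 0.18), with Ighm, the brightest, at -0.50. Of 11 T and NK cell markers 7 were below the floor in both genotypes, Cd3d, Cd3g, Cd4, Cd8a and Thy1 among them, and Gzma, the brightest, stood at -0.66. These cells are the usual source of interferon gamma, whose own gene was below the floor.

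Conventional dendritic cell markers were above 0 in 3 of 4 (Cd83 at 0.18). Mesothelial and fibroblast markers were below 0 in 5 of 5, with Col3a1 at -1.70. Eosinophil markers had 1 measured gene of 4, Ccr3 at -1.92. Mast cell and basophil markers were below 0 in 2 of 4 (Tpsb2 at -0.14). Erythroid markers were below 0 in 2 of 4 and above 0 in 2 (median -0.19, range -1.62 to 0.35). The low end was Hbb-b2, with readings of 49279 in wild-type and 16039 in deficient cells. Alas2 was under the floor in deficient cells only (4774 and 539) and was at least 6.92-fold lower. The brightest erythroid gene, Hba-a1, gave 0.04, or -0.46 from another probe set. The part of cell composition in the interferon gene readings was not tested.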

How the data were processed

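Groups were taken from the sample titles. The authors deposited 1 intensity per probe set and array, linear and with negative values, judging by the numbers themselves. Which software, background correction and scaling made them is not given in the sources used here. Probe sets with 1 gene symbol in the platform annotation (7561; 224 had several and 5394 none) were named, these counts including 55 controls per type that were then left out, and the gene IDs of all 26 members matched RefSeq on GRCm38.p6. Arrays of a type were brought to the same mean, taken without the outer 2% at each end (scaling factors 0.9998 to 1.0002), before the floor and the log2. Of several probe sets for a gene, one with a ratio came before one with a bound, and then the one farthest above the floor was read. The arrays of a type had a Spearman rho of 0.929 (A) and 0.921 (B) over 6529 and 6540 probe sets. Their number limits the precision.

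All members are accounted for. Beside them the text names pathway genes past 2-fold and the brightest measured marker of each list by rule. Other genes named were chosen after their values were seen. Planned identities between proteins were not computed, since no protein sequences were used here. The procedure was tested on simulated arrays. Alternatives were other scalings, floors, folds, summaries, probe set classes, 1 array type at a time and a longer motif. The members and lists were chosen with earlier results of these data known. Computation ran in Python 3.11.15 with scipy 1.17.1, pandas 2.3.3 and numpy 2.4.6, loess came from statsmodels 0.14.6, and plots were drawn by matplotlib 3.10.9.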

Additional observations from a re-analysis of the deposited data

How the results depend on the processing

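No paired analysis was possible because each array type had 1 array per genotype, and for the same reason no replicate could be left out. No member past 2-fold changed sign under the alternatives, and of 153 values of the 17 members with a ratio or bound 11 moved by more than the repeat SD or changed between ratio and bound. A further 10 were lost: Ifit1, Rsad2, Eif2ak2, Adar, Ifi204, Usp18, Tap1 and Tap2 at the 70th percentile floor, and Adar and Ifi204 without probe sets of the shared kinds. Genes lower by 2-fold as ratios numbered 5 in place of 0 when the 30th percentile was the floor. The 1 higher ratio became 0 when the 70th was, and on B alone. The 2 lower bounds became 1 at 3-fold, 1 with the lower floor, and 0 with the higher one or on B alone. The member median of -0.24 was -0.05 with bacterial control scaling, -0.49 and -0.40 with the lower and the higher floor, -0.40 on B alone (3 genes), -0.40 with bounded genes included and -0.09 as a mean. The antiviral median of -0.29 was -0.05 with bacterial controls. The pathway median of -0.07 was 0.18 with bacterial controls and -0.17 on B alone. The changes under other floors and on B alone follow from which genes could be read and, for bounds, from the floor itself. The bound lost at 3-fold was that of Ifi202b, at least 2.62-fold. Bacterial control scaling also moved the median of all measured genes, to 0.24. The cause of the other changes was not tested. With 1 more A at the end of the core, 10 of 25 member windows (40.0%) and 3.44% of all windows held a match. Signal limits what can be read: 9 of 26 members were at or below the floor in both genotypes, as were 2388 of all 6137 named genes.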

Other observations

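A further 3 probe sets, all on A, are annotated to a listed gene together with at least 1 other gene, so they name no gene and entered no count above. One read 1241 in wild-type cells and 2164 in deficient ones, a log2 ratio of 0.80. Another read 6272 and 8367, a ratio of 0.42. The third read 1027 and 244, below the floor of 1036 in both genotypes.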
